A study of Mus musculus with 12 samples.

Results

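The miR-101 family was examined in islets of Langerhans, the endocrine part of the pancreas and home of the insulin-secreting beta cells, taken from adult mouse offspring. Members were the panel rows named miR-101a or miR-101b without a species prefix or arm suffix, with starred rows (#, the minor strand of a hairpin) left out. This rule found 1 row, the mmu-miR-101b assay, among 750 miRNA spots. No unstarred row carries the name miR-101a. The panel holds the assay of the other family member under its older name, hsa-miR-101, and the mouse gene table of RefSeq gives miR-101 as a synonym of Mir101a. The human and mouse strands of these names are known to be identical, so the hsa-miR-101 assay is described beside miR-101b throughout, as a row outside the naming rule. Another row, mmu-miR-101a#, is the starred strand and is given only for comparison.

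The labels list 6 LP0.5 samples, from C57BL/6 males whose mothers were fed a low-protein diet during pregnancy, and 6 Control samples, from C57BL/6 males whose mothers were fed a control diet. The offspring were 2 to 3 months old, and in both groups hand-picked islets were kept overnight in culture medium before total RNA was isolated. Whether a sample is 1 animal or a pool, and how the diet name LP0.5 was chosen, cannot be read from the sources used here. Small RNAs were measured by TaqMan real-time PCR, in which a fluorescent FAM probe reports each amplified product.

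MiR-101 is a conserved family whose best known target is Ezh2, the histone methyltransferase of Polycomb repressive complex 2, which keeps developmental and cell cycle inhibitor genes silent. Other known targets are the anti-apoptotic Bcl2-family gene Mcl1 and the nutrient-sensing kinase Mtor. In beta cells miR-101a is known as a miRNA induced by interleukin-1 beta, and raising it experimentally lowers insulin content and impairs survival. A miRNA recognises its targets mainly through the seed, bases 2 to 8 from its 5′ end, so strands with 1 seed are expected to share many targets.

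The mature strands are shown because the family is defined by them; all sequences are RefSeq entries on build GRCm38.p6, written 5′ to 3′ with bases 2 to 8 in capitals. The letters of the assays' own primers and probes were not used here.
miR-101a-3p, chr4:101346957-101346977, minus strand: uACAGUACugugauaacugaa
miR-101b-3p, chr19:29135338-29135356, plus strand: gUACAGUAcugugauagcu
miR-101c, chr9:3038680-3038698, minus strand: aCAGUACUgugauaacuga
miR-144-3p, chr11:78073047-78073066, plus strand: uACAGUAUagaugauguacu
miR-101a-5p, chr4:101346993-101347014, minus strand: uCAGUUAUcacagugcugaugc

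The capitals of miR-101a-3p and miR-101b-3p differ only because the RefSeq entry of miR-101b-3p begins 1 base earlier. The run ACAGUAC lies at bases 2 to 8 of miR-101a-3p, at bases 3 to 9 of miR-101b-3p, and starts at base 1 of miR-101c, whose entry begins 1 base later. Of 1738 mature mouse entries, 3 hold ACAGUAC within their first 9 bases, and these are the 3 named miR-101. When the 21 bases of miR-101a-3p were laid on the best-matching stretch of the Mir101b hairpin, 20 bases were identical and the difference was A16G, counted from 1 at the 5′ end of miR-101a-3p. MiR-144-3p, a red blood cell miRNA, is the only other entry with ACAGUA at bases 2 to 7, and its seed differs from that of miR-101a-3p by C8U. The panel's miR-144 assay was listed without a ratio, and no row was named miR-101c.

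The hairpins that give rise to these strands are shown next with both mature strands in capitals, the 5′ strand first, because the comparison of strands further on refers to them.
Mir101a hairpin, chr4:101346945-101347027, minus strand: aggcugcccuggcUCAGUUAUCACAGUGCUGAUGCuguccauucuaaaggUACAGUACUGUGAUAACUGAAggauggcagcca
Mir101b hairpin, chr19:29135279-29135375, plus strand: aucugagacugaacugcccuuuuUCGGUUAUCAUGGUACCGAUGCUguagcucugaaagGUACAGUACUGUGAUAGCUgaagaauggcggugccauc

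The genes lie on different chromosomes. In the RefSeq gene table of the same assembly the Mir101b hairpin lies within the span of Rcl1, a protein-coding gene with a known role in ribosomal RNA processing, and the Mir101a hairpin lies within the span of the long noncoding RNA gene E130102H24Rik. The table gives spans only, so exons and introns were not separated.

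The authors' deposited table gives 1 linear ratio for each spot, headed L.05 vs Control, so by that heading values above 1 stand for more of the RNA in LP0.5 islets. It holds no replicate values and no error, and the 12 columns of per-sample values deposited beside it have names that match no sample label. Those columns were therefore not used here, no replicate error or test can be given for any ratio, and the abundance behind a ratio was not analysed. Ratios are relative to the U6 small RNA, whose spots average to 1 within each of the 2 sets of assays that make up the panel, called A and B. The heading is the sole basis for the direction. The authors' deposited table has 0.422 for miR-199a-3p, a miRNA that the study is known for naming as raised in low-protein islets. The direction is therefore not settled here, and ratios are described as listed above or below 1. In whole islets fewer cells of a type and less RNA per cell cannot be told apart.

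Both assayed unstarred strands of the family were listed below 1, at nearly the same value. The authors' deposited table listed miR-101b at 0.663, a log2 ratio of -0.59. For hsa-miR-101, the assay of the miR-101a strand, the authors' deposited table gives 0.674, a log2 ratio of -0.57. These ratios differ 1.02-fold, although the assays sit in different sets, miR-101b in the B set and hsa-miR-101 in the A set, and each set was scaled to its own U6 spots. The mean log2 ratio of both assays was -0.58, which corresponds to a ratio of 0.668. How far each assay also reads the other, nearly identical strand was not tested, so the values are not taken as independent measurements of separate genes.

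The family lay in the lower part of the panel, well short of its extremes. MiR-101b ranked 95 from the lowest of 566 miRNA spots with a ratio, at percentile 16.8. The hsa-miR-101 assay ranked 99, at percentile 17.5. Within their own sets miR-101b ranked 47 of 262 spots and hsa-miR-101 ranked 49 of 304. The median ratio over all 566 spots was 1.01, and the range from the 25th to the 75th percentile, 0.792 to 1.27, lies above both assays.

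**Figure D1:**
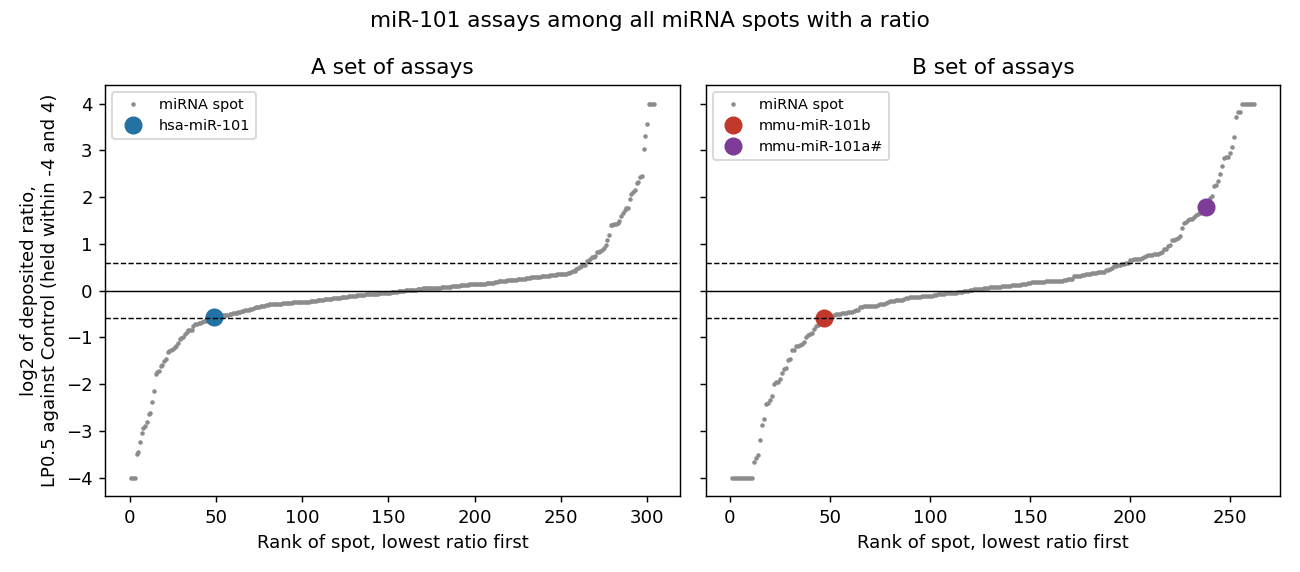
Every miRNA spot with a ratio is plotted by its rank within its assay set (horizontal axis, lowest first) against the log2 of the deposited ratio, LP0.5 against Control (vertical axis, held within -4 and 4; 11 spots lie beyond the upper and 14 beyond the lower end). The solid line marks a ratio of 1 and dashed lines mark 1.5-fold; hsa-miR-101 at rank 49 of 304 and mmu-miR-101b at rank 47 of 262 sit on the lower dashed line, and mmu-miR-101a# sits at rank 238 of 262.

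A limit of 1.5-fold from 1 falls between the assays. MiR-101b was 1.51-fold below 1 and passed it, while hsa-miR-101 was 1.48-fold below 1 and did not. Of the 566 spots, 95 were at least 1.5-fold below 1 (16.8%) and 105 at least 1.5-fold above (18.6%), so a place past this limit was common on the panel. Within the sets, 17.9% of B-set spots and 15.8% of A-set spots were at least 1.5-fold below 1. At 2-fold neither assay passed, where 67 spots lay below 1 (11.8%) and 70 above (12.4%).

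The spots ranked next to the family carried names from many unrelated miRNAs. In the authors' deposited table miR-101b stood just above MMU-MIR-1932 at 0.600, mmu-miR-19a# at 0.628 and rno-miR-148b-5p at 0.632. Just higher than miR-101b the authors' deposited table listed mmu-miR-150# at 0.667, MMU-MIR-2183 at 0.671 and mmu-miR-721 at 0.673. For hsa-miR-101 the next lower spots in the authors' deposited table were miR-190 at 0.657, miR-194 at 0.653 and mmu-miR-544 at 0.647. On its other side came miR-377 at 0.676, miR-34a at 0.679 and mmu-miR-339-3p at 0.688, again as listed in the authors' deposited table. MiR-34a is induced by p53 and, like miR-101a, responds to cytokines in beta cells. With 1 ratio per spot, closeness in rank is the sole measure of likeness that could be given.

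For scale, most repeated spots of the 5 small RNA controls lay nearer to their own assay's median than miR-101b lay to 1. Deviations of the 80 control spots from the median of their own assay over both sets had a 95th percentile of 1.37-fold, and of 1.41-fold over the 64 spots other than U6. Single spots of 1 control still differed by more than 1.5-fold from each other, as for Y1 in the B set, which ran from 0.883 to 1.91 in the authors' deposited table. One control spot, of U87 at 0.133, was listed below miR-101b, and the lowest of the other 79 was at 0.845, all in the authors' deposited table. Pairs of spots that share a miRNA name ranged further. Among 36 pairs of unstarred spots of 1 name the median difference was 1.38-fold, and 14 pairs lay further apart than miR-101b lay from 1. The 95th percentile of these pairs was 6.08-fold, so a ratio of 0.663 lies inside the range by which spots of 1 name differed. Of the 36 pairs, 2 lay closer together than miR-101b and hsa-miR-101. Assays of a pair can be named for different species, so their difference includes more than measurement error. The spread of control spots, in turn, is between spots of 1 small RNA and gives no measure of variation between samples. Whether the controls resemble miR-101b in abundance was not analysed.

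Both assays remained below 1 with every other small RNA taken as the reference in place of U6, but how far below depended on it. Apart from U87 in the B set, each of these controls had a mean log2 ratio above 0, which lowers an assay read against it. With snoRNA135, snoRNA202, U87 and Y1 together, miR-101b was at 0.610 and hsa-miR-101 at 0.588, both at least 1.5-fold below 1. Relative to those 4 controls 23% of all miRNA spots lay that far below 1, 130 of 566. With the median of all miRNA spots of a set as the reference they were at 0.631 and 0.690. The assays separated most with U87 alone, where miR-101b was at 0.833 and hsa-miR-101 at 0.615. With Y1 alone they were at 0.464 and 0.569. The U87 value for miR-101b rests on the 1 low U87 spot of the B set named earlier. Without that spot the 4 controls together placed miR-101b at 0.570 and hsa-miR-101 at 0.588.

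**Figure D2:**
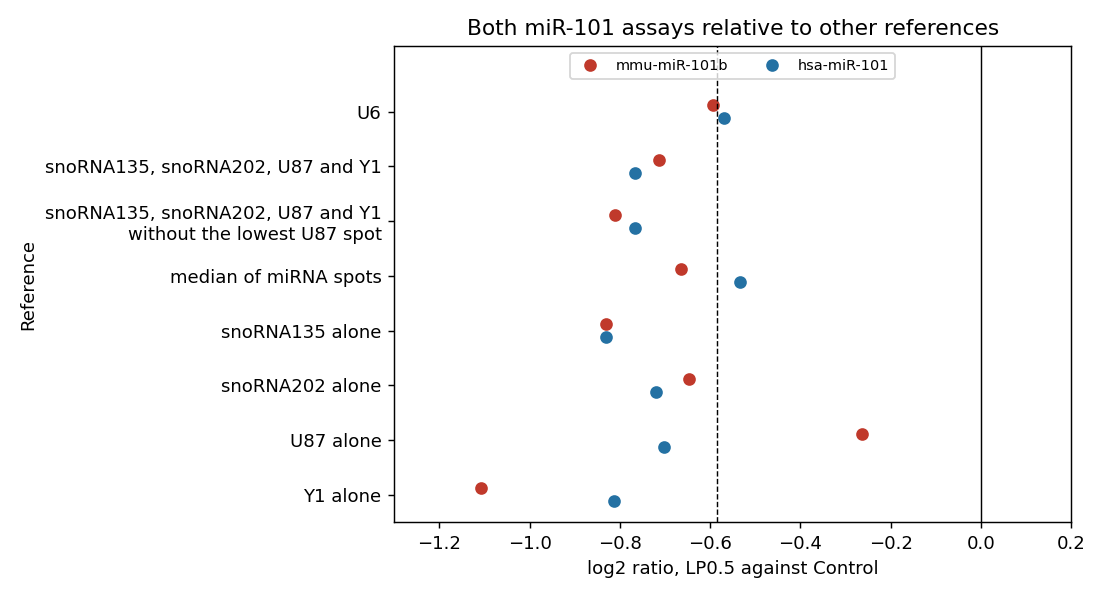
Log2 ratios of mmu-miR-101b (red) and hsa-miR-101 (blue), LP0.5 against Control, are plotted for each reference (rows); the solid line marks a ratio of 1 and the dashed line 1.5-fold below it. All points lie left of the solid line, from -1.11 for miR-101b with Y1 alone to -0.26 for miR-101b with U87 alone.

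The opposite strand of the Mir101a hairpin was listed on the other side of 1. MiR-101a#, the older name of miR-101a-5p, whose sequence and place in the hairpin are printed with the others, has a ratio of 3.46 in the authors' deposited table, or 1.79 on the log2 scale. It stood 5.13-fold above the hsa-miR-101 ratio, a log2 difference of 2.36. MiR-101a# lies in the B set and hsa-miR-101 in the A set, where the median ratios of miRNA spots were 1.05 and 0.976. Of the starred spots with a ratio, 88 lie in the B set and 7 in the A set. How far strand differences include differences between the sets was not tested. Among 73 hairpin names with both a starred and an unstarred strand listed, the median difference between strands was 1.47-fold. In 7 of the 73 the strands lay at least as far apart as for miR-101a, and in 2 of these the starred strand was the higher, miR-125b and miR-196a. Of 95 starred spots with a ratio, 21 were at least 1.5-fold above 1 and 3 were listed higher than miR-101a#. Among all B-set miRNA spots 24.8% were at least 1.5-fold above 1.

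A plant assay in the same set was listed close to miR-101a#. The assay of ath-miR159a, a plant miRNA with no mouse counterpart, was listed at 2.59 to 3.37 over its 8 B-set spots in the authors' deposited table, with a median of 3.01. MiR-101a# also lies in the B set, and its 3.46 is just above that range. Of the 262 B-set spots, 36 were listed above the lowest plant spot. MiR-101b lies in the same set at 0.663. Whether the starred value and the plant values share a source was not tested.

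**Figure D3:**
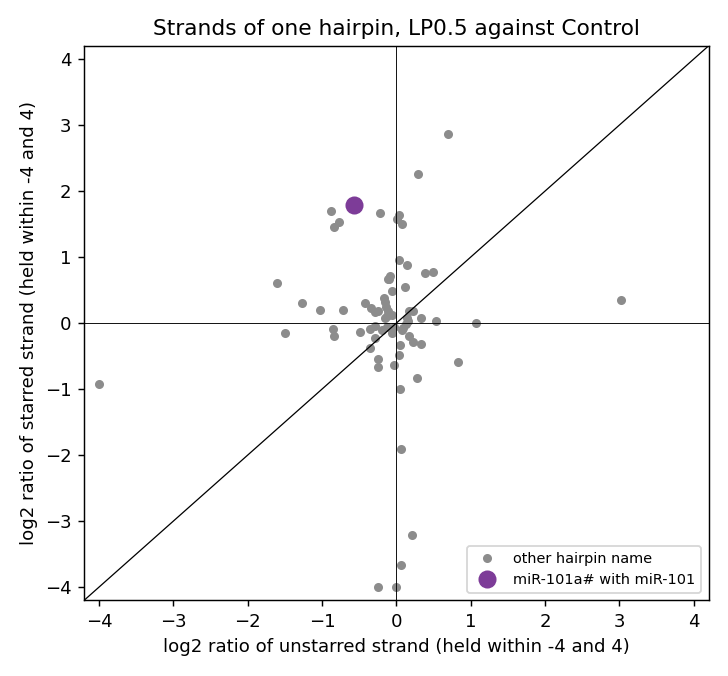
For 73 hairpin names (grey) and for miR-101a# paired with hsa-miR-101 (purple), the log2 ratio of the unstarred strand (horizontal axis) is plotted against that of the starred strand (vertical axis), LP0.5 against Control, both held within -4 and 4. The miR-101a point lies at -0.57 and 1.79, far above the diagonal on which both strands would be equal.

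MiRNAs that share a known target with miR-101 did not lie together at its level. Over the whole panel 278 of 566 miRNA spots (49.1%) were listed below 1 and 94 (16.6%) below miR-101b. List counts relative to U6 are to be read against these shares. The shares do not apply to list counts with other references, for which no panel share below 1 is given here. The list of other miRNAs known to target Ezh2 had 10 members with a ratio, 8 above 1 and 2 below, with a median ratio of 1.27 and none below miR-101b. In the authors' deposited table the lowest of them were miR-26b at 0.872 and miR-26a at 0.989, and the let-7 relative miR-98 was at 1.35. Those above 1 include let-7a, let-7b and let-7c beside miR-98, and both below are miR-26. The 10 members are therefore not 10 separate families. MiR-217 counted as above 1 only as the mean of its spots, 0.950 in the B set and 1.83 in the A set in the authors' deposited table. No member reached the 1.5-fold limit as a mean of its assays, on a panel where 35.3% of spots did so on either side, though 1 of the paired assays of miR-214 and of miR-217 did, at 1.55 and 1.83 in the authors' deposited table. With snoRNA135, snoRNA202, U87 and Y1 as the reference 7 were above 1 and 3 below, with a median of 1.11.

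The list of other miRNAs with Mtor as a known target spread widely. Of 9 names 8 had a ratio, since miR-144 had none, and 5 were above 1 and 3 below with a median of 1.13. With snoRNA135, snoRNA202, U87 and Y1 as the reference the list split 4 and 4 with a median of 0.990. The panel's 49.1% is relative to U6 and does not apply to that split. In the authors' deposited table miR-7b at 0.523 and again miR-199a-3p stood below miR-101b, while the assay of miR-193a had 21.7. The study is linked to miR-199a-3p, so the place of that miRNA is not independent evidence. With 3 of 8 below 1 and 2 of 8 below miR-101b, the list is short for a comparison with the panel's 49.1% and 16.6%, and no difference from the panel was tested.

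The list of other miRNAs known to target Mcl1 was short and mixed. It held 4 members below 1 and 2 above among 6, and their median ratio was 0.844, on a panel with 49.1% of spots below 1. With snoRNA135, snoRNA202, U87 and Y1 as the reference 5 were below and 1 above. The 49.1% is relative to U6 and does not apply to that count. Both members at least 1.5-fold below 1 were also below miR-101b, miR-363 at 0.411 and miR-125b at 0.543 in the authors' deposited table, which makes 2 of 6 past a limit that 16.8% of all spots passed below 1. The members above 1 were miR-193b at 1.27 and miR-29a at 1.04 in the authors' deposited table, and its family member miR-29b was at 0.787 in the authors' deposited table.

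MiRNAs known to respond to cytokines in beta cells, as miR-101a does, were listed on both sides of 1, 3 above and 6 below of 9, with a median of 0.905, beside the panel's 49.1% below 1. With snoRNA135, snoRNA202, U87 and Y1 as the reference, which lowers every spot, 1 was above and 8 were below. The 49.1% is relative to U6 and does not apply to this count either. None was listed lower than miR-101b. The lowest in the authors' deposited table was miR-34a at 0.679, next to hsa-miR-101. MiR-30b, which like miR-101a rises with interleukin-1 beta, was at 1.11 in the authors' deposited table, and miR-155 was the only member past the 1.5-fold limit, at 1.59 in the authors' deposited table, where 35.3% of all spots passed it on either side.

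**Figure D4:**
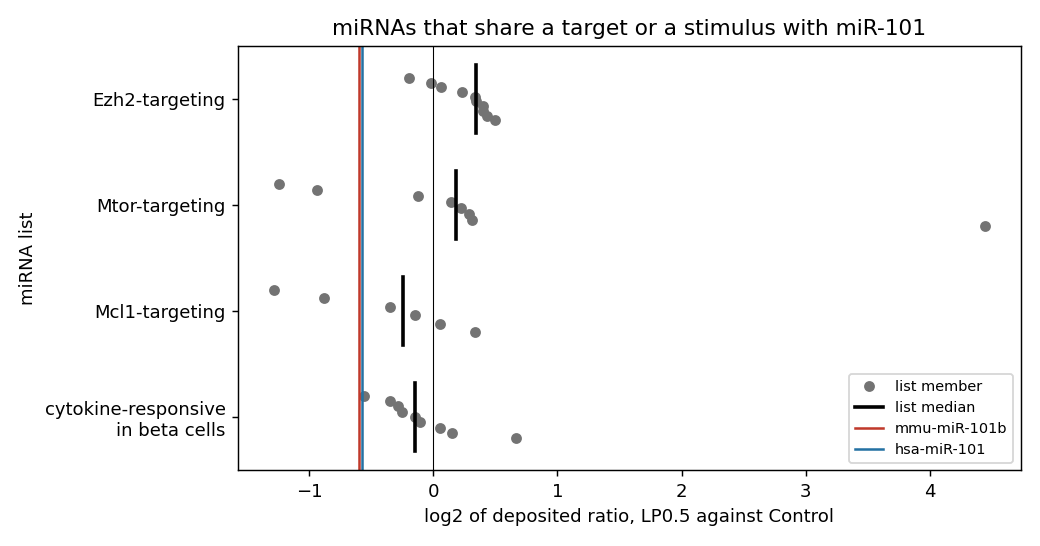
Each grey point is 1 miRNA (mean log2 of its assays, LP0.5 against Control), grouped by list, with the list median as a black bar and the values of mmu-miR-101b (red) and hsa-miR-101 (blue) as vertical lines. No member of the Ezh2 or cytokine list lies left of the red line, against 2 of the Mtor list and 2 of the Mcl1 list.

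Markers of islet cells and of other cell types that may come along with hand-picked islets could be compared only as ratios. The 8 islet endocrine miRNAs had a median ratio of 0.932, 3 above 1 and 5 below, and none at least 1.5-fold from 1, against 35.3% of all spots. They ran from miR-141 at 0.744 to miR-183 at 1.45 in the authors' deposited table. Medians were 0.958 for 4 acinar, 0.975 for 3 endothelial, 0.805 for 4 fibroblast and stellate, 0.866 for 4 blood cell and 1.30 for 4 muscle and liver miRNAs. Of these, 2 fibroblast and stellate, 2 blood cell and 1 muscle and liver miRNA were listed below miR-101b, as were 16.6% of all spots, and 1 of each of these lists was at least 1.5-fold above 1. In the authors' deposited table those above were miR-145 at 2.66, miR-150 at 1.78 and miR-133a at 1.98. MiR-142 counted as below miR-101b only as the mean of its arms, at 1.20 (3p) and 0.305 (5p) in the authors' deposited table. MiR-143 likewise did so only as the mean of its spots, 0.190 in the B set and 1.11 in the A set in the authors' deposited table. Acinar miR-217, muscle miR-1 and fibroblast and stellate miR-214 stayed within 1.5-fold only as means. Each had 1 spot past that limit, at 1.83, 2.12 and 1.55 in the authors' deposited table. Their part in the miR-101 ratios was not tested, and since levels were not analysed, the label islet was not checked against them.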

How the data were processed

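Small RNAs of 6 LP0.5 and 6 Control islet samples were measured by TaqMan PCR, per the labels' protocols. The authors deposited 1 linear ratio (fold value) for each of 846 spots, of which 190 hold none. The submitters' processing notes name limma, with no version or role. How samples were averaged, the detection limit and the normalization are not stated in those sources; that ratios are relative to U6 was found from the values. The 12 per-sample columns match no sample label and were not used, so the planned limma fit was not run. Names came from the deposited assay table, which pairs each spot with an assay number.

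Ratios were converted to log2 and ranked over 566 miRNA spots, and spots of 1 list name were averaged. Members, lists and the rule for named miRNAs were chosen with earlier results of these data known. That rule took the family's rows, 3 neighbours in rank on each side, controls and list members at their ends. MiR-30b, miR-29b, miR-98, miR-26a, let-7a, let-7b, let-7c, miR-143, miR-146b, miR-214, miR-217, miR-1 and the strand pairs named were picked after values were seen. The counting and ranking steps were checked on simulated ratios with known counts, which gives no error for a ratio. Alternatives covered the reference, fold limit, assay set and starred names. Python 3.11.15, numpy 2.4.6, pandas 2.3.3 and matplotlib 3.10.9 were used.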

Additional observations from a re-analysis of the deposited data

Results flagged for a closer look

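Ratios were listed at a plant assay that is neither a family member nor a reference. Abundance was not analysed, so these ratios do not show that the assay detected an RNA. In the authors' deposited table the plant assay ath-miR159a, which has no mouse target, was listed at all 8 of its B-set spots with a median ratio of 3.01, above the median of every small RNA control in that set. In the A set the authors' deposited table held a ratio for 2 of its 8 spots, 0.139 and 1.96. The B set also holds miR-101b and miR-101a#, for which the authors' deposited table gives 0.663 and 3.46.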

How the results depend on the processing

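No paired analysis was possible because no column of per-sample values matches a sample label, and for the same reason leaving out samples and a limit on threshold cycles were not run. Under 7 other references, all 14 values of single assays stayed below 1, from -1.11 to -0.26 on the log2 scale, and 12 were at least 1.5-fold below 1. Of all 566 miRNA spots, 130 (23%) lay that far below 1 with the 4 controls together and 98 with the median of miRNA spots. For the single controls no such panel count is given here, so the 12 cannot be set against a panel share. The 14 values are the same deposited ratios shifted by 1 amount per set, so they are not separate measurements. Apart from U87 in the B set, each of the other controls had a mean log2 ratio above 0 and could only lower an assay. The value of hsa-miR-101 with the 4 controls together is counted with and without the low U87 spot, which lies in the B set. The mean log2 ratio of both assays, -0.58 relative to U6, moved by more than the mean SD of repeated control spots (0.23) with snoRNA135 alone (-0.83) and with Y1 alone (-0.96); the cause was not tested. That SD rests on 1 low U87 spot. Without it the mean SD was 0.14, and the values with the 4 controls together (-0.74, and -0.79 without that spot) moved by more than that as well. The single controls and the reference without the lowest U87 spot were chosen after seeing the data. MiRNA spots at least 1.5-fold from 1 numbered 105 above and 95 below with U6, and 91 and 130 with snoRNA135, snoRNA202, U87 and Y1, which turns the majority to below 1. Without the lowest U87 spot they were 82 and 135. Percentiles of both assays ranged from 16.1 to 18.2 over the assay set, starred-name and reference alternatives run. Abundance was not analysed, so assays near the end of the reaction could not be told from well detected ones.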
